A study of Mus musculus with 36 samples.

Results

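Cells display fragments of their proteins on MHC molecules, and 10 genes of that machinery were followed here in mouse brain. They are the class I genes H2-K1, H2-D1 and B2m, the peptide transporter gene Tap1, the immunoproteasome genes Psmb8 and Psmb9, and the class II genes Cd74, H2-Aa, H2-Ab1 and H2-Eb1. The genes were chosen by name, with earlier results of these data known. They are the rows of the deposited mRNA table that carry one of these symbols, and all 10 were found among its 22154 genes. The table covers 12 long RNA libraries in 4 groups of 3: wild-type (WT) mice at 6 and at 9 months of age, and APP/PS1 mice at the same ages. APP/PS1 mice carry the transgenes APP695swe and PS1-dE9 and are used as a model of brain amyloid deposition, while WT mice carry neither. Every sample is labelled C57BL/6 and brain, and the sources used here give neither the promoter of the transgenes nor the sex of the mice or the brain region. The labels do not say whether the libraries of a group are from different mice, so the p-values below measure the spread between libraries, which may be technical.

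Class I molecules sit on nearly all cells and show peptides from inside the cell to CD8 T cells. The proteasome cuts the peptides, a transporter made of Tap1 and Tap2 moves them into the endoplasmic reticulum, and there they are loaded onto a heavy chain (H2-K1 or H2-D1) paired with the light chain B2m. The immunoproteasome is a variant in which the catalytic subunits Psmb8, Psmb9 and Psmb10 take the places of Psmb5, Psmb6 and Psmb7, and interferon gamma is its best known inducer. Class II molecules are made by antigen-presenting cells and show peptides taken up from outside the cell to CD4 T cells. H2-Aa and H2-Ab1 are the 2 chains of one class II molecule, H2-Eb1 is a chain of another, and Cd74, the invariant chain, holds the groove until a peptide is loaded. In the brain, microglia and border macrophages are the main cells known to make class II. The heavy chain genes and H2-Aa, H2-Ab1 and H2-Eb1 lie in the MHC region and are known to differ in sequence between mouse strains. Cd74, on chromosome 18, and B2m, on chromosome 2, lie outside that region.

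Levels are given in FPKM, a measure of sequenced fragments scaled to transcript length and library size, summed over the transcripts of a gene, so levels of different genes can be compared per length. The table holds no counts, so the depth behind each level is unknown, and FPKM summed to between 292540 and 301778 per library. App separated the genotypes in all 12 libraries: this gene, to which APP695swe reads can add, was at 433 to 453 FPKM in the 6 WT libraries and at 970 to 1029 FPKM in the 6 APP/PS1 libraries. The labels' extraction text names retinas, whereas 6 photoreceptor marker genes summed to 0.619 to 1.36 FPKM and 5 neuron marker genes to 1361 to 1503 FPKM. Changes were tested with limma on log2(FPKM + 0.25) in the 13593 genes whose mean over all libraries reached 0.5 FPKM, and all 10 genes did. Values were adjusted by Benjamini-Hochberg over all genes tested, and a gene was called at an adjusted p under 0.05.

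5 libraries stood apart in the MHC region. They were WT 1 of 6 months, WT 1 and WT 3 of 9 months, and APP/PS1 2 and APP/PS1 3 of 9 months. In these 5 libraries the leading transcript of H2-K1, ENSMUST00000025181, held 2.81% to 7.18% of the FPKM of the gene, against 55.4% to 82.5% in the other 7. The division ran through 3 of the 4 groups, and all 3 APP/PS1 libraries of 6 months were among the other 7. It was uneven between the ages, with 1 of 6 libraries of 6 months and 4 of 6 libraries of 9 months standing apart, and less so between the genotypes, with 3 of 6 WT and 2 of 6 APP/PS1 libraries. The comparisons of ages and of genotypes at 6 months therefore set unequal numbers of such libraries against each other, while at 9 months each genotype has 2 of them.

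None of the 10 genes was called in any comparison of genotype or age. B2m was by far the most abundant, with a mean of 47.1 FPKM over the 12 libraries, followed by H2-D1 at 6.01, H2-K1 at 5.0 and Cd74 at 3.81 FPKM. The other genes averaged from 0.507 FPKM for H2-Ab1 to 1.32 FPKM for Psmb8. Over the 12 libraries, Tap1 varied least (1.76 times from the lowest to the highest library) and H2-D1 varied most (8.56 times).

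**Figure D1:**
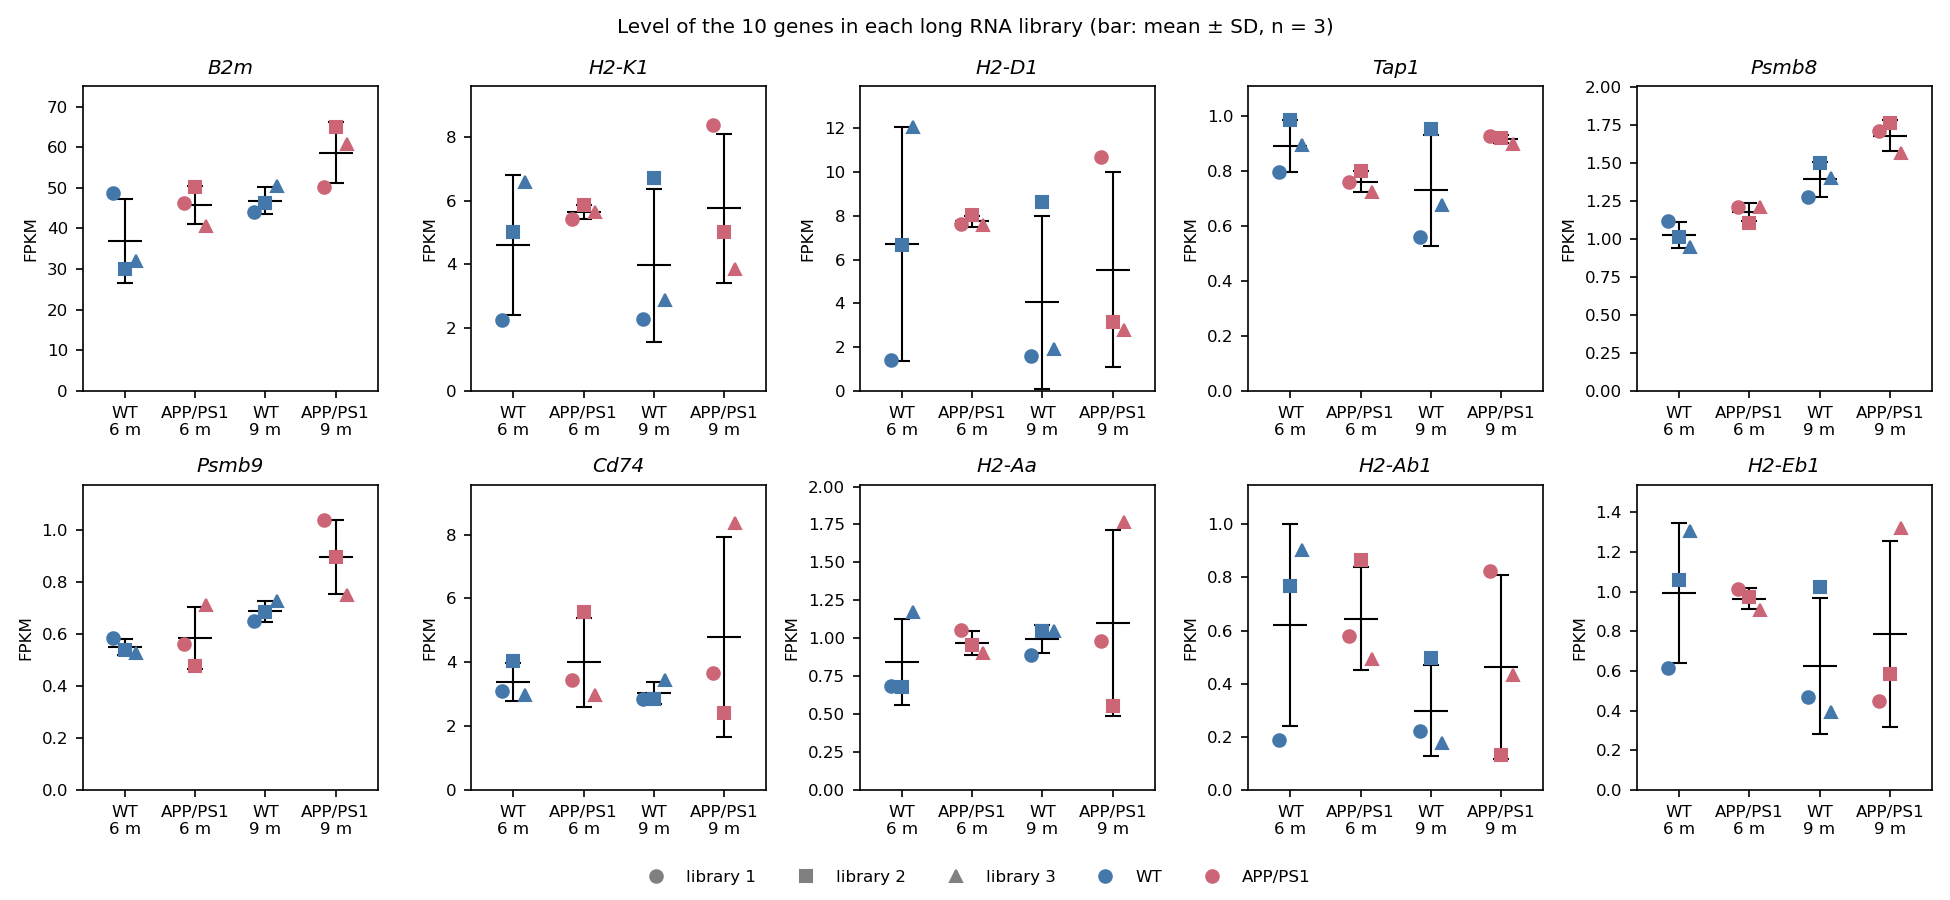
FPKM of each of the 10 genes in every library, with 1 panel per gene, WT in blue, APP/PS1 in red and the library number as the marker shape; horizontal bars give the mean and SD of 3 libraries. H2-D1 splits into libraries at 1.41 to 3.14 FPKM and libraries at 6.65 to 12.1 FPKM within 3 of the 4 groups, whereas Psmb8 stays between 0.947 and 1.77 FPKM and is highest in APP/PS1 at 9 months.

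H2-D1 (ENSMUSG00000073411), a class I heavy chain, was at 1.41, 6.65 and 12.1 FPKM in WT 1, 2 and 3 of 6 months and at 7.61, 8.05 and 7.58 FPKM in the APP/PS1 libraries of that age. At 9 months it was at 1.61, 8.62 and 1.92 FPKM in WT and at 10.7, 3.14 and 2.79 FPKM in APP/PS1. The 5 low values are those of the 5 libraries that stood apart, and the WT and APP/PS1 ranges overlapped at both ages. The log2 difference between APP/PS1 and WT was 0.62 ± 0.76 (SE, n = 3 and 3) at 6 months (limma adjusted p = 0.799) and 0.55 ± 0.76 at 9 months (adjusted p = 0.875). Without WT 1 of 6 months the difference at 6 months was −0.21, and without APP/PS1 1 of 9 months that at 9 months was −0.04.

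H2-K1 (ENSMUSG00000061232), the other heavy chain among the 10 genes, was at 2.23, 5.01 and 6.59 FPKM in WT and at 5.42, 5.88 and 5.65 FPKM in APP/PS1 at 6 months. At 9 months it was at 2.27, 6.73 and 2.88 FPKM in WT and at 8.41, 5.02 and 3.85 FPKM in APP/PS1. The lowest 3 libraries were all WT, and all were among the 5 that stood apart. The difference between genotypes was 0.40 ± 0.43 on the log2 scale at 6 months (limma adjusted p = 0.762) and 0.59 ± 0.43 at 9 months (adjusted p = 0.711), and the groups overlapped at both ages. Without WT 1 of 6 months the value at 6 months was −0.03. In the 5 libraries H2-K1 did not vanish: a second transcript, ENSMUST00000172912, was at 2.15 to 4.66 FPKM there and at 0.606 to 3.58 FPKM in the other 7.

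H2-K1 and H2-D1 are similar enough in sequence to share reads, and how shared reads were counted is not stated, so the split between them is uncertain. Over the 12 libraries, H2-K1 and H2-D1 had a Pearson r of 0.95 in log2 levels, the highest of the 45 pairs among the 10 genes. Correlations here describe 12 libraries of 4 groups that share a normalization, and carry no test. The RefSeq promoter windows of this pair, on build GRCm38.p6, are shown because the genes also resemble each other there: within an aligned stretch of 190 bases, 170 were identical (89.5%), with a longest identical run of 47. Tap1 is shown because its window shares 225 of 250 bases with that of Psmb9, which is read in the opposite direction, and B2m because it is the class I gene that lies outside the MHC region. Each sequence is the 250 bases before the annotated start, 5′ to 3′ on the strand of the gene. Capitals mark matches on either strand to 4 short motifs. AANNGAAA (interferon regulatory factor) and GGGATTCCC (NF-kappaB) are named after factors known to bind them. CTGATTGG (Y box) and TGACG (the core of the cyclic AMP response element) are named as DNA elements.
H2-K1, chr17:34000348-34000597, minus strand: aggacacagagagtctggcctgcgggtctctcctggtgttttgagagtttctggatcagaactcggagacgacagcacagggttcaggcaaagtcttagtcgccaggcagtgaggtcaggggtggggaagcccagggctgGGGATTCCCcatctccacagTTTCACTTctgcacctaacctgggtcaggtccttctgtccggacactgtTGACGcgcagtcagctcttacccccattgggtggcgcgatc
H2-D1, chr17:35262844-35263093, plus strand: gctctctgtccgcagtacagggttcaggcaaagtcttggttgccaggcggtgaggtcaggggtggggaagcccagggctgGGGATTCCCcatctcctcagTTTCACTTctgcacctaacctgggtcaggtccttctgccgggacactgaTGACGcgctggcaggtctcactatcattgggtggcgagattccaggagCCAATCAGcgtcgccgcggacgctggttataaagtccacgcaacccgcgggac
Tap1, chr17:34187306-34187555, plus strand: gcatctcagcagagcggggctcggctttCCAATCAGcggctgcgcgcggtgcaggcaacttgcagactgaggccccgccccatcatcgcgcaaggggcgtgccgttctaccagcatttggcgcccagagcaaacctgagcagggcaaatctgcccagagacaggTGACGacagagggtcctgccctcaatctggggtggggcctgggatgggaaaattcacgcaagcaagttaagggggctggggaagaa
B2m, chr2:122147437-122147686, plus strand: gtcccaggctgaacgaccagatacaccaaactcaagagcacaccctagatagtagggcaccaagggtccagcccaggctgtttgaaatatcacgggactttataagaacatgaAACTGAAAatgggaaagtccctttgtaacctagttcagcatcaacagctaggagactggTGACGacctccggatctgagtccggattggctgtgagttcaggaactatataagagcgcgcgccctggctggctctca

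H2-K1 and H2-D1 both held the NF-kappaB motif, the interferon regulatory factor motif and TGACG in the same order, with first bases at −110, −90 and −41 from the start in H2-K1 and at −170, −150 and −101 in H2-D1. The NF-kappaB letters were in 84 of 27025 mouse promoter windows of this length (0.311%), and the class I genes H2-Q6 and H2-Q7 were also among the 84. AANNGAAA was in 21.6%, CTGATTGG in 4.07% and TGACG in 17.9% of the windows. B2m held AANNGAAA and TGACG, and Tap1 held CTGATTGG and TGACG. The motifs were chosen with the sequences in view, and a match is a description of letters, not of binding. 8 of the 10 genes had a promoter entry, and H2-Ab1 and Cd74 are named only.

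Many genes of the chromosome that carries H2-D1 varied with it from library to library. That chromosome, 17, holds 4.80% of the tested genes with a known chromosome. With the 10 genes themselves left out, 27 of the 100 tested genes with the largest absolute r to H2-D1 lay there. Of the 27, 10 ran opposite to H2-D1. For H2-Ab1 the number was 24 of 100, for H2-K1 15 of 100, and for the other 7 genes between 2 and 7 of 100, although Tap1, Psmb8, Psmb9, H2-Aa and H2-Eb1 also lie on this chromosome, between H2-K1 and H2-D1. Outside the 10 genes, the 5 most like H2-D1 were Rps18, H2-T22, Atp6v1g2, Cyp4f15 and H2-T23, with r from 0.88 to 0.91. All 5 are on chromosome 17. Rps18, a ribosomal protein gene, was at 0.586 to 2.99 FPKM in the 5 libraries that stood apart. Of the other 7, WT 3 of 6 months was at 143 FPKM and the rest were at 62.0 to 75.7 FPKM. Glo1, a glyoxalase gene on the same chromosome, was singled out after its values were seen. It ran the other way, at 64.1 to 70.6 FPKM in the 5 and at 35.6 to 55.0 FPKM in the 7. Among the 7, WT 3 of 6 months again lay by itself for Glo1, at 35.6 FPKM, with the rest at 48.2 to 55.0 FPKM. What sets the 5 libraries apart was not tested. The table holds no reads, so a low FPKM of these genes cannot be told apart here from reads that were not assigned because they differ in sequence from the reference.

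**Figure D2:**
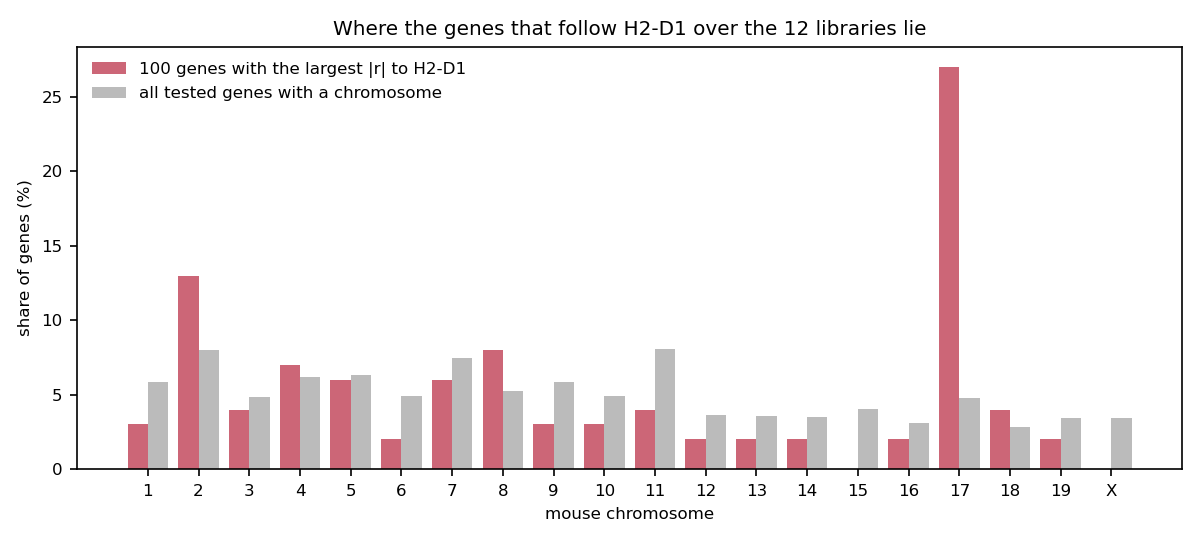
Share of genes on each mouse chromosome (percent), for the 100 tested genes with the largest absolute Pearson r to H2-D1 over 12 libraries (red) and for all tested genes with a known chromosome (grey). Chromosome 17, which carries the MHC, holds 27% of the first set and 4.80% of the second.

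Other genes named H2 in the same libraries split in more than 1 way. H2-Q2, H2-Q6 and H2-Q7, class I genes, were listed at 0 in all 5 libraries that stood apart and above 0 in all of the other 7, where H2-Q2 was at 0.171 to 0.603 FPKM. H2-DMb1, a chain of the class II peptide exchange factor, was at 0.0462 to 0.165 FPKM in the 5 and at 0.431 to 0.608 FPKM in the 7. Its partner chain H2-DMa was at 3.82 to 4.63 FPKM in the 5 and at 3.56 to 4.53 FPKM in the 7, so the ranges overlapped. Tap2, the partner of Tap1, was at 2.73 to 3.46 FPKM in the 5 and at 2.05 to 2.63 FPKM in the 7, the opposite order to H2-D1.

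**Figure D3:**
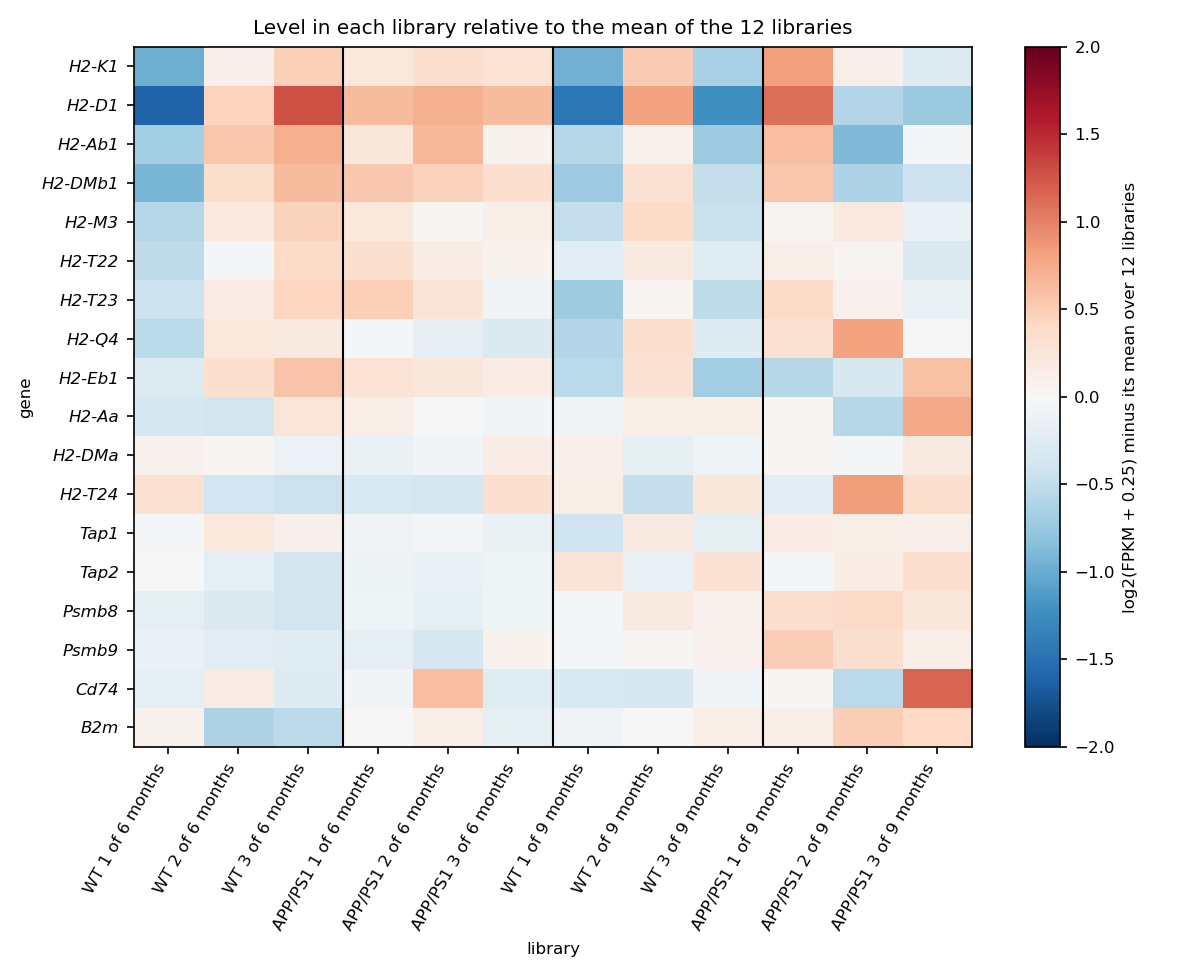
Level of MHC and antigen presentation genes in each library relative to the mean of the 12 libraries, as a difference of log2(FPKM + 0.25) (red higher, blue lower), with vertical lines between the 4 groups. H2-D1, H2-Ab1 and H2-DMb1 have their 5 lowest values in the same 5 libraries, while Psmb8 and Psmb9 are mostly light blue in the 6 month groups and red in APP/PS1 at 9 months, and Cd74 is highest in APP/PS1 3 of 9 months.

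B2m (ENSMUSG00000060802), the light chain of all class I molecules, did not share the pattern of the heavy chains, with r = −0.43 to H2-D1 and −0.17 to H2-K1. It was at 48.8, 30.0 and 32.1 FPKM in WT and at 46.3, 50.1 and 40.7 FPKM in APP/PS1 at 6 months. In the libraries of 9 months it was at 43.9, 46.3 and 50.4 FPKM in WT and at 50.3, 65.0 and 60.7 FPKM in APP/PS1. The highest 2 libraries were APP/PS1 of 9 months and the lowest 2 were WT of 6 months, but the genotypes overlapped at both ages. The difference between genotypes over both ages was 0.33 ± 0.11 on the log2 scale (limma adjusted p = 0.380). In WT, 9 months against 6 months gave 0.37 ± 0.16 (adjusted p = 0.473), and in APP/PS1 it gave 0.36 ± 0.16 (adjusted p = 0.385), where the ages did not overlap. The FPKM of B2m divided by the sum of H2-K1 and H2-D1 ranged from 1.72 in WT 3 of 6 months to 13.4 in WT 1 of 6 months, so light and heavy chain mRNA were in no constant proportion.

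Psmb8 (ENSMUSG00000024338), the immunoproteasome subunit also called LMP7, showed the most orderly levels of the 10 genes. It was at 1.12, 1.01 and 0.947 FPKM in WT and at 1.21, 1.11 and 1.21 FPKM in APP/PS1 at 6 months. In the libraries of 9 months it was at 1.28, 1.5 and 1.40 FPKM in WT and at 1.71, 1.77 and 1.57 FPKM in APP/PS1. All 6 libraries of 9 months lay above all 6 of 6 months, and at 9 months all 3 APP/PS1 libraries lay above all 3 WT libraries. At 6 months WT 1 (1.12 FPKM) lay above APP/PS1 2 (1.11 FPKM). The log2 difference between 9 and 6 months was 0.44 ± 0.10 (SE, n = 3 and 3) in APP/PS1 (limma adjusted p = 0.137) and 0.37 ± 0.10 in WT (adjusted p = 0.285). The genotype difference was 0.16 ± 0.10 at 6 months (adjusted p = 0.551) and 0.23 ± 0.10 at 9 months (adjusted p = 0.471). Psmb8 had the smallest adjusted p of the 10 genes in both age comparisons, and none passed 0.05.

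Psmb9 (ENSMUSG00000096727), also called LMP2, ran close to Psmb8 over the 12 libraries (r = 0.89). It was at 0.584, 0.540 and 0.526 FPKM in WT and at 0.561, 0.478 and 0.711 FPKM in APP/PS1 at 6 months, where the genotypes overlapped. At the later age it was at 0.649, 0.684 and 0.728 FPKM in WT and at 1.04, 0.895 and 0.751 FPKM in APP/PS1, with no overlap between genotypes. In each genotype all 3 libraries of 9 months lay above all 3 of 6 months. The difference between ages in APP/PS1 was 0.46 ± 0.14 on the log2 scale (limma adjusted p = 0.221), and the genotype difference at 9 months was 0.28 ± 0.14 (adjusted p = 0.545). For none of the 10 genes was the change of the genotype effect with age called.

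Tap1 (ENSMUSG00000037321), a subunit of the peptide transporter and the neighbour whose start region Psmb9 shares, had an r of 0.15 to Psmb9. It was at 0.797, 0.986 and 0.895 FPKM in WT and at 0.763, 0.800 and 0.726 FPKM in APP/PS1 at 6 months. At the later age it was at 0.561, 0.954 and 0.678 FPKM in WT and at 0.929, 0.921 and 0.9 FPKM in APP/PS1. The 3 APP/PS1 libraries lay close together at each age and did not overlap between ages, and they overlapped the WT range at both ages. The genotype difference was −0.17 ± 0.14 on the log2 scale at 6 months and 0.27 ± 0.14 at 9 months, and the difference between these was 0.44 ± 0.20 (limma adjusted p = 0.446). In WT 3 of 6 months the leading transcript held 27.7% of the FPKM of Tap1, against 80.1% to 100% in the other 11 libraries, and with that transcript alone the difference at 6 months was 0.28.

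Each immunoproteasome subunit was also set against the constitutive subunit it replaces. Psmb8 stood at 1.34% to 1.55% of the FPKM of Psmb5 in WT and at 1.91% to 2.18% in APP/PS1 at 6 months, and at 2.33% to 3.80% and 2.57% to 3.10% at 9 months. Psmb9 stood at 0.858% to 1.78% of Psmb6 over all libraries, while Psmb10 stood at 22.6% to 27.8% of Psmb7. Over both ages, the mean log2 ratio was higher in APP/PS1 than in WT by 0.22 for Psmb8 to Psmb5 (2-sided exact permutation test within age, p = 0.135) and by 0.21 for Psmb9 to Psmb6 (exact p = 0.105), and was lower by a difference of −0.07 for Psmb10 to Psmb7 (exact p = 0.155). Adjusted over the 3 ratios, each exact p was 0.155, and the smallest p that the 400 assignments allow is 0.005. The highest ratio of Psmb8 to Psmb5, 3.80%, was in WT 2 of 9 months. Psmb5 was at 39.6 FPKM there, against 50.6 to 72.0 FPKM in the other libraries. Without that library the difference for Psmb8 to Psmb5 was 0.32 with an adjusted exact p of 0.045, from fewer assignments. It was the only alternative in which any of the 3 ratios passed the threshold. With all libraries, the difference for Psmb8 to Psmb5 was 0.46 at 6 months and −0.01 at 9 months. Psmb5 itself was at 70.4 to 72.0 FPKM in WT and 55.5 to 63.4 FPKM in APP/PS1 at 6 months.

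**Figure D4:**
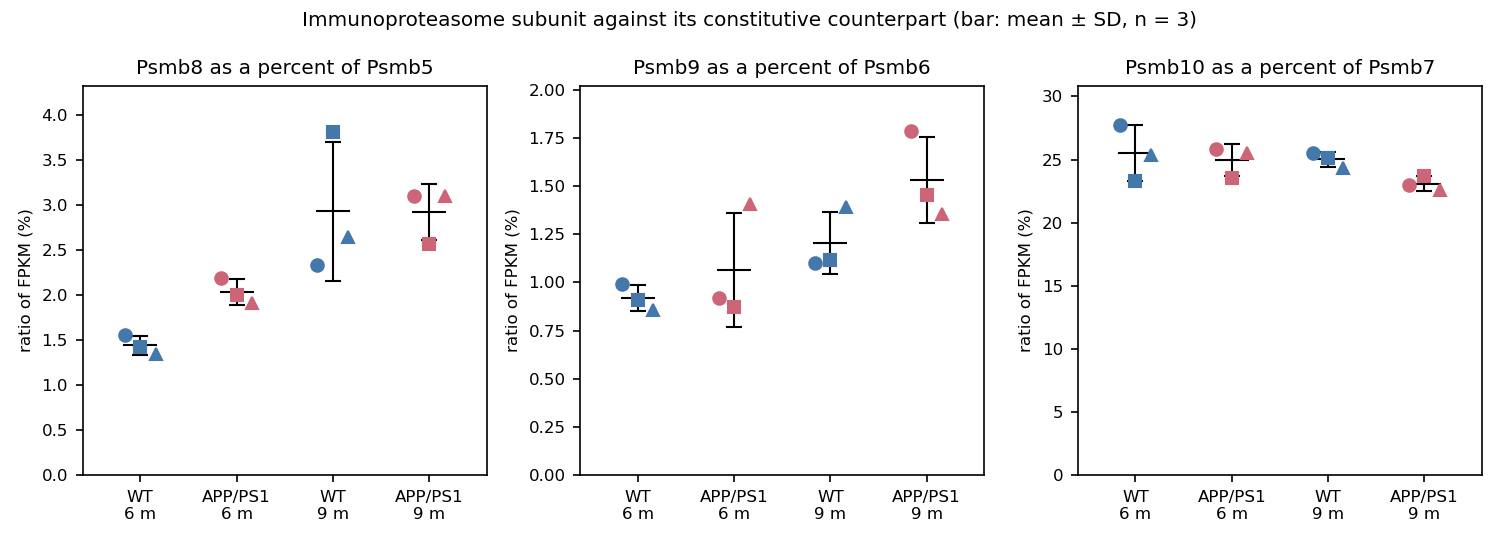
FPKM of each immunoproteasome subunit as a percent of the FPKM of its constitutive counterpart in each library (WT blue, APP/PS1 red, marker shape for the library number), with the mean and SD of 3 libraries. Psmb10 is at 22.6% to 27.8% of Psmb7, whereas Psmb8 and Psmb9 are at no more than 3.80% and 1.78% of theirs, and WT 2 of 9 months is the highest point for Psmb8.

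Cd74 (ENSMUSG00000024610), the invariant chain, was the most abundant of the class II genes in all 12 libraries. It was at 3.10, 4.05 and 2.97 FPKM in WT and at 3.44, 5.59 and 2.99 FPKM in APP/PS1 at 6 months. The later libraries had it at 2.85, 2.84 and 3.45 FPKM in WT and at 3.66, 2.40 and 8.35 FPKM in APP/PS1. A single library, APP/PS1 3 of 9 months, was highest and another of the same group was lowest, so the genotypes overlapped. The genotype difference was 0.45 ± 0.36 on the log2 scale at 9 months (limma adjusted p = 0.746) and −0.03 without APP/PS1 3. At 6 months it was 0.20 ± 0.36 (adjusted p = 0.870), and −0.06 without APP/PS1 2. The 5 genes most like Cd74 over the 12 libraries were Slc25a44, Adamtsl3, Prodh, Ptrf and Slc13a4, with r from 0.87 to 0.93.

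H2-Aa (ENSMUSG00000036594), the class II alpha chain, was at 0.685, 0.678 and 1.17 FPKM in WT and at 1.06, 0.953 and 0.903 FPKM in APP/PS1 at 6 months. The later libraries had it at 0.887, 1.05 and 1.05 FPKM in WT and at 0.985, 0.556 and 1.76 FPKM in APP/PS1. As with Cd74, APP/PS1 3 of 9 months was highest and APP/PS1 2 of 9 months lowest, and H2-Aa had an r of 0.64 to Cd74. The genotype difference at 9 months was 0.02 ± 0.28 on the log2 scale (limma adjusted p = 0.991), and −0.32 without APP/PS1 3.

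H2-Ab1 (ENSMUSG00000073421), the beta chain that pairs with H2-Aa, followed H2-D1 (r = 0.88) more closely than its own partner (r = 0.33). It was at 0.188, 0.768 and 0.902 FPKM in WT and at 0.578, 0.865 and 0.493 FPKM in APP/PS1 at 6 months. At 9 months it was at 0.224, 0.496 and 0.177 FPKM in WT and at 0.824, 0.131 and 0.432 FPKM in APP/PS1. The 5 libraries that stood apart held its 5 lowest values, 0.131 to 0.432 FPKM, next to 0.493 to 0.902 FPKM in the other 7. The genotype difference was 0.14 ± 0.43 at 6 months (limma adjusted p = 0.935), −0.30 without WT 1, and 0.30 ± 0.43 at 9 months (adjusted p = 0.879), −0.06 without APP/PS1 1.

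H2-Eb1 (ENSMUSG00000060586), the beta chain of the second class II molecule, was at 0.613, 1.06 and 1.31 FPKM in WT and at 1.01, 0.975 and 0.908 FPKM in APP/PS1 at 6 months. At the later age it was at 0.468, 1.02 and 0.393 FPKM in WT and at 0.451, 0.586 and 1.32 FPKM in APP/PS1. Its order resembled H2-Ab1 in WT, but APP/PS1 1 of 9 months was low for H2-Eb1 and high for H2-Ab1. The genotype difference was 0.01 ± 0.33 at 6 months, −0.23 without WT 1, and 0.22 ± 0.33 at 9 months, −0.13 without APP/PS1 3, with limma adjusted p of 0.996 and 0.889.

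Set side by side, the 10 genes leaned one way with genotype without any of them passing the test. The genes were chosen with earlier results of these data known, so their lean is a description and not a test. At 6 months 9 of the 10 had a log2 difference above 0, with a median of 0.17, where 46.1% of all tested genes were above 0 and their median was −0.01. Without WT 1 of 6 months, 1 of the 5 libraries that stood apart, it was 5 of the 10 at 6 months, since H2-K1, H2-D1, H2-Ab1 and H2-Eb1 fall below 0. At 9 months 10 of the 10 were above 0, with a median of 0.29, where the share of all genes was 53.4% and their median was 0.01. That count was 7 of 10 without APP/PS1 3 of 9 months, 8 without APP/PS1 1 and 9 without WT 1 of that age. With all libraries, over both ages the count was again 10 of 10 (49.4% of all genes). For 9 against 6 months it was 4 of 10 in WT (48.6%) and 6 of 10 in APP/PS1 (55.7%). The 10 values are not independent, since several genes share the division between libraries. With the 5 libraries left out, which leaves 1 library in each group at 9 months, 4 of the 7 genes other than H2-K1, H2-D1 and H2-Ab1 were above 0 at 9 months. These were B2m (0.12), Cd74 (0.34), Psmb8 (0.16) and Psmb9 (0.46), while H2-Eb1 stood at −0.86. That alternative was chosen after seeing the data.

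Against the whole table, the count of called genes at 6 months was 0 of 10 where 0.0441% of 13593 genes were called, and at 9 months it was 0 of 10 where 0.0956% were called. Over both ages it was 0 of 10 against 0.118%, for 9 against 6 months in WT 0 of 10 against 0.0441%, in APP/PS1 0 of 10 against 0%, and for the change of the genotype effect with age 0 of 10 against 0.00736%. At an unadjusted p under 0.05, higher values in APP/PS1 were found for 0 of 10 genes at 6 months (4.66% of all genes), for Psmb8 at 9 months (5.55%) and for Psmb8 and B2m over both ages (5%). Higher values at 9 than at 6 months were found for Psmb8 and B2m in WT (4.92%) and for Psmb8 and Psmb9 in APP/PS1 (8.45%). Lower values at that level were found for 0 of the 10 genes in each of these comparisons, where the shares of all genes were 7.08%, 4.17%, 5.42%, 5.33% and 4.68% in the same order. For the change of the genotype effect with age it was 0 of 10 in both directions, with 6.87% of all genes higher and 4.41% lower. Groups without overlap, in the higher direction, were found for 0 of 10 genes for genotype at 6 months (6.7% of all genes). They were those of Psmb8 and Psmb9 for genotype at 9 months (9.28%), of the same pair for age in WT (8.55%), and of Psmb8, Psmb9, Tap1 and B2m for age in APP/PS1 (10.8%). The 3 comparisons of genotype and the 2 of age share libraries and are not independent of each other.

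**Figure D5:**
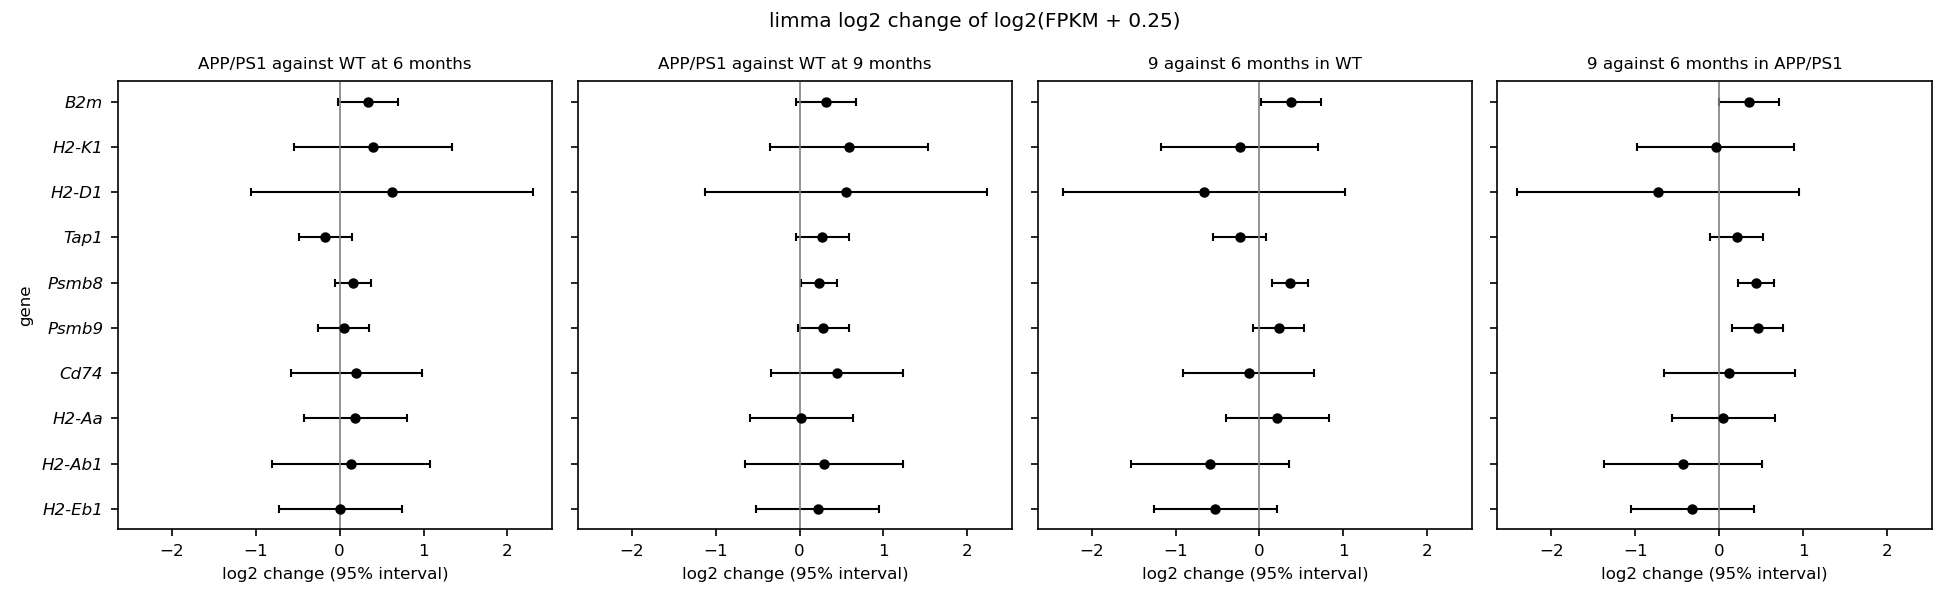
Log2 change of each gene (point) with its 95% interval from limma on log2(FPKM + 0.25), for genotype at each age and for age in each genotype. The points for genotype at 9 months all lie above 0, and the intervals are widest for H2-D1 and narrowest for Psmb8, whose 3 rightmost panels lie above 0 before adjustment for the number of genes tested.

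The other genes of the pathway were taken from lists chosen with earlier results known, and none of those in the main test, which needs a mean of 0.5 FPKM, was called for genotype either. Among 7 tested class I heavy chain genes outside the 10, 6 were above 0 at 9 months, with H2-Q4 at 0.54 and H2-T23 at 0.50 on the log2 scale (limma adjusted p = 0.565 and 0.548). Of 7 peptide loading genes 4 were above 0 at 9 months. Tapbp, or tapasin, which bridges the transporter and class I, was at 0.20 ± 0.06 (adjusted p = 0.301), and Calr, a chaperone of the loading complex, was at −0.23 ± 0.08 (adjusted p = 0.381). Of 14 constitutive proteasome subunits, 14 were above 0 at 9 months but by a median of only 0.06, and 2 were above 0 at 6 months. Psmb10 and the proteasome activator genes Psme1 and Psme2 differed by 0.01, 0.02 and 0.15 at 9 months.

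Ctss, the protease that trims the invariant chain in antigen-presenting cells, had the lowest adjusted p for genotype among the pathway genes in the main test. It was at 28.8 to 36.5 FPKM in WT and 35.1 to 40.6 FPKM in APP/PS1 at 6 months, and at 28.3 to 33.2 FPKM and 42.2 to 53.2 FPKM at 9 months. The log2 difference was 0.59 ± 0.10 at 9 months (limma adjusted p = 0.0981) and 0.42 ± 0.07 over both ages (adjusted p = 0.0860). Cd86, a co-stimulatory ligand, differed by 0.52 ± 0.16 at 9 months (adjusted p = 0.327), and Irf8, a transcription factor of myeloid cells, by 0.57 ± 0.22 (adjusted p = 0.414). The co-stimulation list had 3 tested genes, and 2 of them, Cd86 and Cd274, were above 0 at 9 months. Cd274, which encodes an inhibitory ligand, differed by 0.45 ± 0.14 (limma adjusted p = 0.322). The third, the adhesion molecule gene Icam1, was at −0.51 ± 0.28 (adjusted p = 0.593). Of the 10 regulators of MHC transcription tested, Irf8 among them, 4 were above 0 at 9 months, with a median of −0.05. Ifng, which encodes interferon gamma, was listed at 0 in all 12 libraries.

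Pathway genes under 0.5 FPKM were outside the main test, and 2 of them are named here after their values were seen. Nlrc5, the class I transactivator, was at 0.219, 0.273 and 0.254 FPKM in APP/PS1 of 9 months and at 0.0408 to 0.124 FPKM in the other 9 libraries. In the fit of 18678 genes without a filter its difference at 9 months was 0.54 ± 0.10 (limma adjusted p = 0.129). H2-M5, a class I gene of the M region, was at 0.251 to 0.467 FPKM in WT and 0.0437 to 0.0713 FPKM in APP/PS1 at 6 months, and at 0.183 to 0.231 FPKM and 0.0373 to 0.125 FPKM at 9 months. In the same fit it was lower in APP/PS1 over both ages by a log2 difference of −0.67 ± 0.10 (adjusted p = 0.0388), which is past the threshold. Ciita, the class II transactivator, was at 0.0103 to 0.0621 FPKM, with no order by group.

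Levels of cell type markers stand beside these results as measured. In bulk RNA, fewer cells of a type and less RNA per cell cannot be told apart. The summed level of 13 microglia markers was 113 to 133 FPKM in WT and 134 to 141 FPKM in APP/PS1 at 6 months, and 116 to 125 FPKM and 137 to 171 FPKM at 9 months, with 13 of 13 above 0 at 9 months and 0 called. Their part in the levels of B2m, Psmb8 and Ctss was not tested. The 9 border macrophage markers summed to 7.22 to 10.3 FPKM and were not ordered by genotype. Of 10 T cell markers, 8 were under 0.1 FPKM in all libraries, with Cd3g at 0, and Cd4 (1.64 to 2.92 FPKM) and Lck (0.167 to 0.415 FPKM) as the others. Of 4 B cell markers 2 stayed under 0.1 FPKM, and of 8 dendritic cell markers 3 did (Xcr1, Clec9a and Ccr7). Itgax, which encodes an integrin of dendritic cells and of activated microglia, was at 0.117 to 0.201 FPKM in WT and 0.363 to 0.592 FPKM in APP/PS1 at 6 months, and at 0.0309 to 0.0524 FPKM and 0.799 to 1.08 FPKM at 9 months. The genotypes did not overlap at either age. Itgax was singled out after its values were seen and was under the filter of the main test. Of the 3 dendritic cell markers in that test, 2 were above 0 and 1 was below 0 at 9 months, with a median of 0.01. Gfap, an intermediate filament gene of astrocytes, was the 1 marker of the 4 astrocyte markers called, higher in APP/PS1 at 9 months by 1.06 ± 0.14 (limma adjusted p = 0.0138). The part of either gene's cells in the levels of the 10 genes was not tested. The 12 choroid plexus markers summed to 6.74 to 300.01 FPKM in WT and 104 to 336 FPKM in APP/PS1 at 6 months, and to 315 to 359 FPKM and 78.9 to 301 FPKM at 9 months, without overlap at 9 months. The log2 difference of APP/PS1 from WT was above 0 for 12 of 12 at 6 months and below 0 for 12 of 12 at 9 months, with medians of 0.93 and −0.72 and 0 called. With their level as a covariate the number of the 10 genes called was 0 in all 6 comparisons, as it was without it. That count therefore cannot show whether the level matters. With the covariate, the genotype difference at 6 months turned negative for Cd74 (−0.19), H2-Ab1 (−0.23) and H2-Eb1 (−0.21), and the other genes kept their direction.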

How the data were processed

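The deposited mRNA table holds FPKM per transcript, made by the authors, for 12 long RNA libraries. The submitters' processing notes list Bowtie 0.12.2 and build mm8 without saying what each was for; the sources used here give no counting tool, annotation or strand setting, and reads shared by similar class I genes may have been split between them. FPKM of the 48717 transcripts were summed per gene, and 98.1% of gene IDs matched a reference table of names. The deposited FPKM were taken as log2(FPKM + 0.25), a scale that understates changes of low genes, and fitted with limma 3.58.1 (lmFit, contrasts.fit, eBayes with trend) in R 4.3.3, with 4 group means over all 12 libraries. Ratios were compared by a 2-sided exact permutation test within age. The procedures were tested on simulated data. Alternatives covered the pseudocount, filter, scaling, spread estimate, transcript, replicate block, choroid plexus level and leaving out each library. Named were the 10 genes and, from each list, up to 3 genes of smallest p for genotype over both ages. Also named were the 5 genes outside the 10 most like Cd74 and H2-D1. Exceptions are stated. Genes and lists were chosen with earlier results of these data known. Chromosomes and promoters are from RefSeq GRCm38.p6. The circRNA, lncRNA and miRNA tables were not used here.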

Additional observations from a re-analysis of the deposited data

How the results depend on the processing

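The number of the 10 genes called was 0 under all alternatives with a value, 142 pairings of a comparison with a setting. Of 40 pairings of a gene with a comparison of genotype at 1 age or of age in 1 genotype, 22 kept their direction throughout. Of the 928 values from alternatives for these 40 pairings, 37 were in the opposite direction, none of them called. The lowest limma adjusted p among the 928 was 0.131. Leaving out each library in turn gave log2 differences for genotype at 6 months for H2-K1 from −0.026 to 0.71, H2-D1 from −0.21 to 1.24, Cd74 from −0.056 to 0.37, H2-Ab1 from −0.30 to 0.40, H2-Eb1 from −0.23 to 0.19 and Psmb9 from −0.057 to 0.14. Leaving out each library in turn gave log2 differences for genotype at 9 months for H2-D1 from −0.042 to 1.26, Cd74 from −0.027 to 0.82, H2-Aa from −0.32 to 0.34, H2-Ab1 from −0.062 to 0.68 and H2-Eb1 from −0.13 to 0.52. Leaving out each library in turn gave log2 differences for age in WT for H2-K1 from −0.67 to 0.074. Leaving out each library in turn gave log2 differences for age in APP/PS1 for H2-K1 from −0.34 to 0.20, Cd74 from −0.35 to 0.49 and H2-Aa from −0.29 to 0.37. With a pseudocount of 1 FPKM, the opposite direction was −0.0049 for H2-Eb1 by genotype at 6 months. With quantile normalization, the opposite direction was −0.0097 for H2-Eb1 by genotype at 6 months and −0.031 for H2-Aa by genotype at 9 months. With the most abundant transcript alone, the opposite direction was 0.28 for Tap1 by genotype at 6 months, 0.13 for Tap1 by age in WT and −0.0039 for Cd74 by age in APP/PS1. With the choroid plexus covariate, the opposite direction was −0.19 for Cd74 by genotype at 6 months, −0.23 for H2-Ab1 by genotype at 6 months, −0.21 for H2-Eb1 by genotype at 6 months and 0.012 for H2-K1 by age in APP/PS1. With the 5 libraries left out, the opposite direction was −0.23 for H2-Eb1 by genotype at 6 months, −0.070 for H2-Aa by genotype at 9 months, −0.86 for H2-Eb1 by genotype at 9 months, −0.030 for Tap1 by genotype at 9 months, 0.018 for Tap1 by age in WT and −0.074 for Cd74 by age in APP/PS1. For the log2 ratio of Psmb8 to Psmb5, leaving out each library in turn gave 0.15 to 0.32, and it passed the threshold only without WT 2 of 9 months; the other 2 ratios passed under no alternative. Over all genes, the number called moved with the setting: 6 for genotype at 6 months (4 to 17), 13 at 9 months (5 to 17), 16 over both ages (7 to 17), 6 for age in WT (0 to 13), 0 for age in APP/PS1 (0 to 10) and 1 for the difference of the genotype effect (0 to 4). The cause of these moves was not tested. Replicate numbers did not pair the libraries: same-numbered libraries deviated from their group means with r from −0.12 to 0.126, 1 of 18 pairs was over 0.1, and 2 of 12 libraries were most like one of their own number. With the replicate block, 0 of the 10 genes were called. Using only the libraries of the groups compared was not run for genotype over both ages or for the difference of the genotype effect, where it leaves the fit as it is. Depth is unknown, so no level here has a counting error, and differences of genes under 1 FPKM rest on low values.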
